A study of Mus musculus with 12 samples.

Results

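Chemokines are small secreted proteins that bind G protein-coupled receptors on leukocytes and direct their movement into tissue. The members described here were genes of the deposited eWAT table whose symbol begins with Ccl, Ccr, Cxcl or Cxcr followed by a number and at most 1 letter, together with Cx3cl1 and Cx3cr1. They were 54 of the 22033 genes in the table, of which 38 were ligands and 16 were receptors. The eWAT (epididymal white adipose tissue) came from male C57BL/6J mice that were 21 weeks old. For 16 weeks the mice had eaten a normal diet (ND), a high-fat diet (HFD), the HFD plus an ethanol extract of chrysanthemum leaves (CLE) at 1.5% by weight, or the HFD plus the flavonoid luteolin (LU) at 0.003% by weight. The 3 mice sequenced from each group were described as representative ones, and how they were picked was not given in the sources used here. CLE and LU mice also ate the HFD throughout, so each supplement was given along with the HFD from its start.

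Chemokines are named for the spacing of their first cysteines, which are adjacent in the CC family and separated in the CXC and CX3C families. Ccr2 and its ligands Ccl2 and Ccl7 are known for recruiting blood monocytes, which become macrophages in the fat of obese mice, and Ccr1 binds an overlapping set of CC ligands. The CXC ligands of Cxcr2 attract neutrophils, those of Cxcr3 are induced by interferon-γ and attract T cells, and Cxcl12 is made by stromal cells and binds Cxcr4. Values are FPKM (fragments per kilobase of transcript scaled to the mapped fragments of each library), summed over the transcripts of a gene and therefore comparable between genes. Differences were tested with limma on log2(FPKM + 1) over the 12244 genes that reached 1 FPKM in at least 3 libraries, and 33 members were among them. Log2 differences are limma estimates ± SE with 3 mice in each group, and the adjusted p beside each is from limma with Benjamini-Hochberg adjustment over all 12244 genes. A member was called when its adjusted p was below 0.05 and its fold change exceeded 1.5 on the FPKM + 1 scale. That scale understates fold changes at low FPKM.

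Libraries of a group resembled each other, with Pearson correlations across genes of 0.980 to 0.992 within groups. Adipocyte markers summed to 27133 to 28860.2 FPKM in ND and 15919.7 to 18003 in HFD, while epididymal markers summed to at most 5.69 FPKM and 3 of the 9 were listed at 0. Liver markers summed to 1.86 to 34.7 FPKM, highest in ND mouse 2 and in CLE mouse 2 at 28.3, and skeletal muscle markers to at most 1.15 except for 6.44 in HFD mouse 12 and 16.2 in CLE mouse 11. Of 11 macrophage and monocyte markers tested, 9 rose with HFD and 9 fell with each supplement. Their sum was 365 to 537 FPKM in ND, 2302 to 2632 in HFD, 614 to 869.8 in CLE and 946 to 1064 in LU. Emr1, which encodes the macrophage marker F4/80, was 7.34 to 11.5 FPKM in ND and 131 to 164 in HFD. None of the 5 T and NK cell markers tested was called in any of the 3 comparisons with HFD. Of the 7 neutrophil markers 3 were tested, with Ly6g listed at 0 in all libraries. S100a8 was 4.84 to 14.1 FPKM in ND and 69.7 to 118 in HFD and rose (3.26 ± 0.41, adjusted p = 5.6e-05), Csf3r rose as well (1.32 ± 0.08, adjusted p = 6.7e-07), both fell with each supplement, and S100a9 fell with HFD (-0.79 ± 0.27, adjusted p = 0.029). Of the 4 mast cell and eosinophil markers tested, 3 rose and 1 fell with HFD and 3 fell with each supplement. All 6 mesothelial markers fell with HFD and 1 rose with each supplement. Of the 8 adipocyte markers, 6 fell and 1 rose with HFD, 6 rose and 1 fell with CLE, and 3 rose and 1 fell with LU. In bulk tissue, fewer cells of a type and less RNA per cell cannot be told apart, and the part of cell numbers and of other tissue in the results below was not tested.

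Summed over the 38 ligands, FPKM was 289 ± 11.5 (SD, n = 3) in ND, 556 ± 22.5 in HFD, 385 ± 39.6 in CLE and 462 ± 29.6 in LU. The sum over the 16 receptors was 26.5 ± 7.16 in ND, 79.9 ± 11.3 in HFD, 45.6 ± 2.26 in CLE and 52.4 ± 3.05 in LU. In both classes the HFD mice lay above all other mice and the ND mice below all others. The make-up of the ligands also differed, since Ccl6 and Ccl9 together supplied 21.0 to 26.6% of ligand FPKM in ND mice, 51.4 to 52.6% in HFD mice, 29.8 to 33.7% in CLE mice and 33.2 to 36.3% in LU mice. Ccl6 and Ccl9 were the most abundant ligands in every HFD mouse, whereas Cxcl12 or Ccl11 held the first place in every ND mouse. These sums are a description and were not tested.

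The HFD was compared with the ND to find which members change in diet-induced obesity. In that comparison 16 of the 33 tested members (48.5%) rose and 4 (12.1%) fell, against 15.1% and 10.6% of all genes tested. The share that fell was close to that of all genes. The median log2 difference was 0.47 over the members and -0.02 over all genes. Those that rose were 8 monocyte-attracting CC ligands, namely Ccl2, Ccl3, Ccl4, Ccl5, Ccl6, Ccl7, Ccl8 and Ccl9, the receptors Ccr1, Ccr2, Cx3cr1 and Cxcr4, and the ligands Ccl22, Cxcl2, Cxcl14 and Cxcl16. Ccl25, Ccl27a, Cxcl9 and Cxcl13 fell.

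The supplements were compared with the HFD alone to find which of these levels they alter. With CLE, 12 members (36.4% of those tested) fell and 2 (6.06%) rose, against 10.4% and 6.28% of all genes. The median log2 difference was -0.33 over the members and 0.00 over all genes. With LU, 6 (18.2%) fell and 2 (6.06%) rose, against 7.75% and 4.66% of all genes, with medians of -0.10 and 0.03. For both supplements the share that rose was close to that of all genes. Ccl3, Ccl6, Ccl9, Cx3cr1, Cxcl14 and Cxcr4 fell in both comparisons and Ccl27a rose in both. Ccl3 is counted in all 3 comparisons although it passed the filter only through the HFD mice, which built its direction in. Ccl4 reached 1 FPKM only in the HFD mice and LU mouse 3, which built in its direction with HFD and with CLE. Ccl2, Ccl4, Ccl8, Ccr1, Cxcl2 and Cxcl16 fell and Ccl25 rose with CLE, and these 7 did not pass the test with LU, which by itself shows no difference between the supplements. Cxcl9 rose with LU and missed the fold change with CLE. The comparisons share the HFD mice, so their values are not independent of each other.

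**Figure D1:**
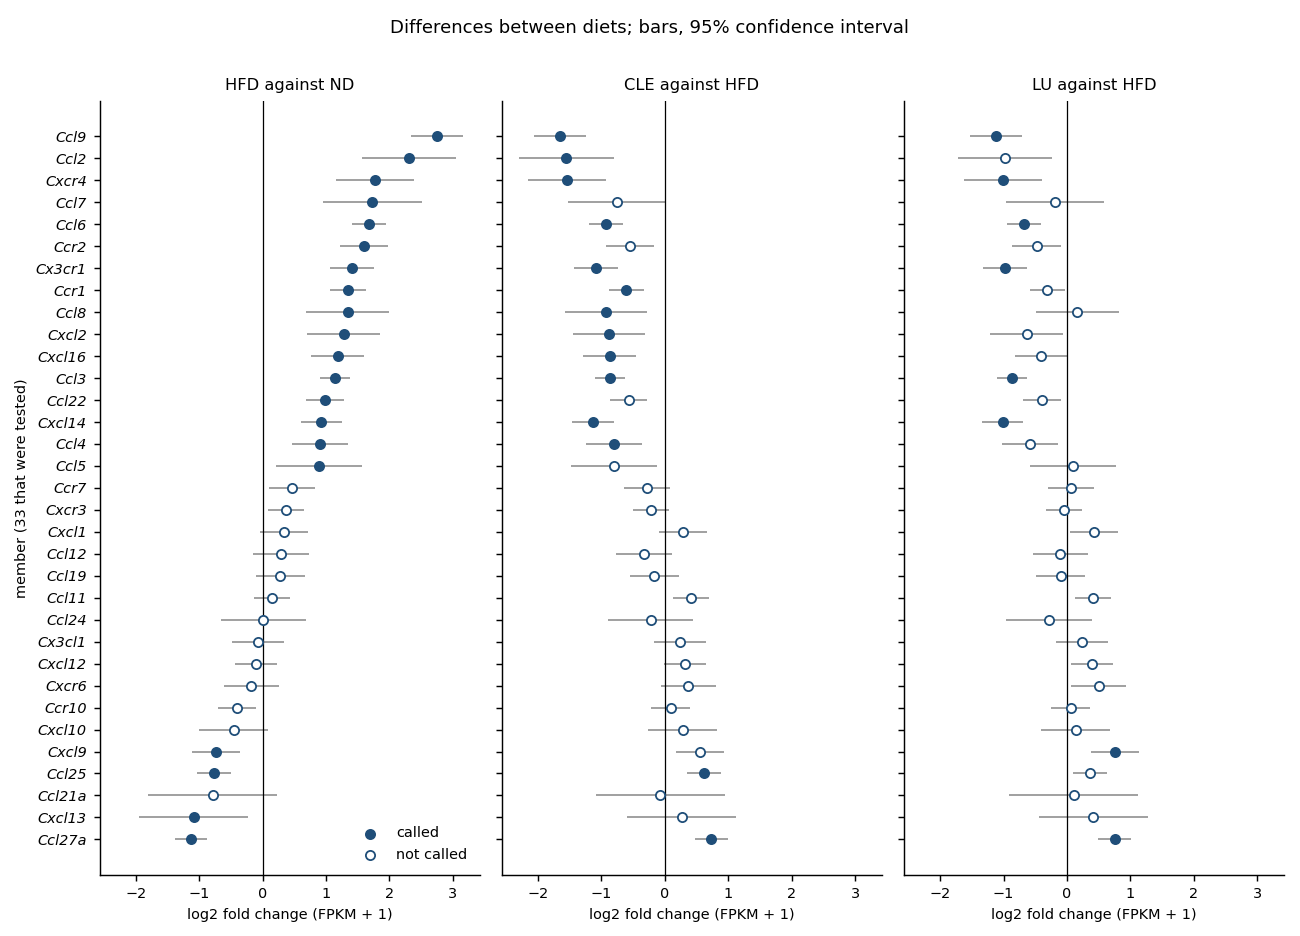
Log2 fold changes on FPKM + 1 of the 33 tested members in HFD against ND, CLE against HFD and LU against HFD, ordered by the first; points are limma estimates, filled where called, and lines are 95% confidence intervals. Ccl9 stands at the top with 2.75 under HFD and has the lowest value with both supplements, -1.66 for CLE and -1.12 for LU.

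Among the CC ligands that attract monocytes, macrophages and T cells, all 9 passed the filter and 8 rose with HFD, the exception being Ccl12. Ccl6 and Ccl9, which attract monocytes and other myeloid cells through Ccr1, were the most abundant of the group. Ccl6 was 46.4, 58.1 and 42.9 FPKM in the ND mice, 159.9, 172 and 144 in the HFD mice, 72.8, 87.0 and 89.3 in the CLE mice and 97.6, 104 and 93.6 in the LU mice. Its log2 difference was 1.68 ± 0.12 (adjusted p = 1.3e-06) between HFD and ND, -0.93 ± 0.12 (adjusted p = 1.9e-04) between CLE and HFD and -0.68 ± 0.12 (adjusted p = 0.0022) between LU and HFD. The 4 groups did not overlap, with ND lowest, then CLE, LU and HFD. Ccl9 was 16.1, 21.7 and 18.01 FPKM in the ND mice, 132, 129 and 128 in the HFD mice, 29.6, 42.0 and 53.1 in the CLE mice and 49.7, 60.4 and 68.6 in the LU mice. It showed a 6.98-fold higher mean with HFD, and the log2 difference was 2.75 ± 0.19 (adjusted p = 8.6e-07) against ND, -1.66 ± 0.19 (adjusted p = 7.1e-05) for CLE against HFD and -1.12 ± 0.19 (adjusted p = 0.0014) for LU against HFD. CLE mice and LU mice overlapped for Ccl9 and lay between ND and HFD.

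Ccl2, also called MCP-1, is the main ligand of Ccr2. It was 2.99, 4.42 and 7.65 FPKM in the ND mice, 33.4, 24.9 and 24.4 in the HFD mice, 8.33, 5.01 and 15.1 in the CLE mice and 12.4, 11.1 and 17.2 in the LU mice. All HFD mice exceeded all others, and the log2 difference from ND was 2.31 ± 0.34 (adjusted p = 1.9e-04). Ccl2 fell with CLE, with a log2 difference of -1.55 ± 0.34 (adjusted p = 0.0047). For LU the difference was -0.98 ± 0.34 (adjusted p = 0.0520), just short of the threshold, although all 3 LU mice lay below all 3 HFD mice. In the fit of HFD and LU alone, Ccl2 passed at -0.98 (adjusted p = 0.0056), and it also passed on leaving out any 1 of ND mouse 2, ND mouse 4, CLE mouse 4, CLE mouse 11 and LU mouse 8, at 0.022 to 0.0489. With all mice kept it passed under median ratio scaling of the libraries, at -1.01 (adjusted p = 0.044), and with the trend option of limma, at -0.98 (adjusted p = 0.048). Ccl7 (MCP-3), another Ccr2 ligand, was 1.75, 4.69 and 7.63 FPKM in the ND mice, 20.1, 13.5 and 15.3 in the HFD mice, 8.22, 6.68 and 13.4 in the CLE mice and 11.8, 16.8 and 13.6 in the LU mice. It rose with HFD by 1.73 ± 0.35 (adjusted p = 0.0017) and did not pass with CLE at -0.76 ± 0.35 (adjusted p = 0.12) or LU at -0.20 ± 0.35 (adjusted p = 0.71), and LU mice 3 and 8 lay within the HFD range. With CLE it passed without ND mouse 2, at -0.76 (adjusted p = 0.034), and in the fit of HFD and CLE alone, at -0.76 (adjusted p = 0.044).

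Ccl8 (MCP-2) was 5.48, 14.1 and 8.03 FPKM in the ND mice, 17.8, 35.0 and 20.2 in the HFD mice, 11.9, 11.6 and 11.9 in the CLE mice and 25.9, 33.3 and 20.9 in the LU mice. HFD mice exceeded ND mice by 1.34 ± 0.30 (adjusted p = 0.0030). CLE mice, at 11.6 to 11.9 FPKM, were below every HFD and every LU mouse, while LU mice lay within the range of the HFD mice, with differences from HFD of -0.93 ± 0.30 (adjusted p = 0.032) for CLE and 0.16 ± 0.30 (adjusted p = 0.72) for LU. The CLE call was lost without HFD mouse 15 or any 1 of the CLE mice, with adjusted p of 0.061 to 0.13, and the difference without HFD mouse 15 was -0.64 (adjusted p = 0.13). Without the 4 libraries whose labels carry the letter R, a fit with 1 ND mouse, the CLE difference was -0.92 and was not called. Ccl12, whose gene lies next to Ccl8, was 0.515 to 0.997 FPKM in ND, 0.853 to 1.39 in HFD, 0.340 to 1.01 in CLE and 0.421 to 1.26 in LU, and it was not called in any comparison.

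Ccl3, Ccl4 and Ccl5 (MIP-1α, MIP-1β and RANTES) attract monocytes and T cells, and the first and the last bind Ccr1. Ccl3 was 0.0674, 0.0928 and 0.0812 FPKM in the ND mice, 1.25, 1.44 and 1.49 in the HFD mice, 0.157, 0.577 and 0.248 in the CLE mice and 0.227, 0.393 and 0.300 in the LU mice. It passed the filter only through the HFD mice, so a difference was built into its inclusion, and the level was low, with 1.15 ± 0.11 (adjusted p = 7.7e-06) for HFD against ND, -0.86 ± 0.11 (adjusted p = 1.4e-04) for CLE against HFD and -0.87 ± 0.11 (adjusted p = 2.9e-04) for LU against HFD on the FPKM + 1 scale, which understates changes at this level. Ccl4 was 0.469, 0.219 and 0.189 FPKM in the ND mice, 2.18, 1.10 and 1.10 in the HFD mice, 0.247, 0.340 and 0.585 in the CLE mice and 0.352, 1.18 and 0.421 in the LU mice. It rose with HFD by 0.91 ± 0.20 (adjusted p = 0.0030) and with CLE differed by -0.80 ± 0.20 (adjusted p = 0.0100), and for LU the value was -0.58 ± 0.20 (adjusted p = 0.0511) with LU mouse 3 inside the HFD range. With median ratio scaling of the libraries the LU difference passed, at -0.60 (adjusted p = 0.048), and without LU mouse 3 it passed at -0.80 (adjusted p = 0.015). Ccl4 reached 1 FPKM only in the HFD mice and LU mouse 3, so a higher level in HFD than in ND and CLE was built into its inclusion. Without LU mouse 3 it passed the filter only through the HFD mice, so a lower LU value was then built in as well. The labels carry the letter R for 4 libraries, ND 3, ND 4, CLE 4 and LU 2, so a fit without these libraries has 1 ND mouse, whose spread is taken from the other groups. In that fit the differences of Ccl4 were 0.72 (adjusted p = 0.11) for HFD and -0.78 (adjusted p = 0.056) for CLE. Assembled transcript variants held 45.8% of Ccl4 FPKM, in 1 row that starts inside Ccl3, so reads of these neighbouring genes may be shared.

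Ccl5 was 4.69, 9.42 and 5.44 FPKM in the ND mice, 15.3, 12.4 and 10.1 in the HFD mice, 4.39, 7.58 and 8.83 in the CLE mice and 9.23, 20.5 and 12.4 in the LU mice. Its log2 difference with HFD was 0.89 ± 0.31 (adjusted p = 0.031), was -0.80 ± 0.31 (adjusted p = 0.063) for CLE and 0.10 ± 0.31 (adjusted p = 0.84) for LU, and neither supplement passed. With CLE it passed without ND mouse 3, CLE mouse 11 or LU mouse 3, at adjusted p of 0.040 to 0.0454, and in the fit of HFD and CLE alone, at -0.80 (adjusted p = 0.033). The highest value of all was in LU mouse 3. The HFD call was lost without ND mouse 2 or 4 or HFD mouse 12 or 15, with adjusted p up to 0.11, and with the letter R as a covariate it was 0.89 (adjusted p = 0.075). LU mouse 3 also had the highest sum of the 11 T and NK cell markers, 19.9 FPKM against 9.57 and 12.95 in the other LU mice and 9.97 to 11.5 in HFD, and the part of these cells in its Ccl5 level was not tested. Without LU mouse 3, Ccl5 in LU against HFD was -0.20 (adjusted p = 0.69).

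**Figure D2:**
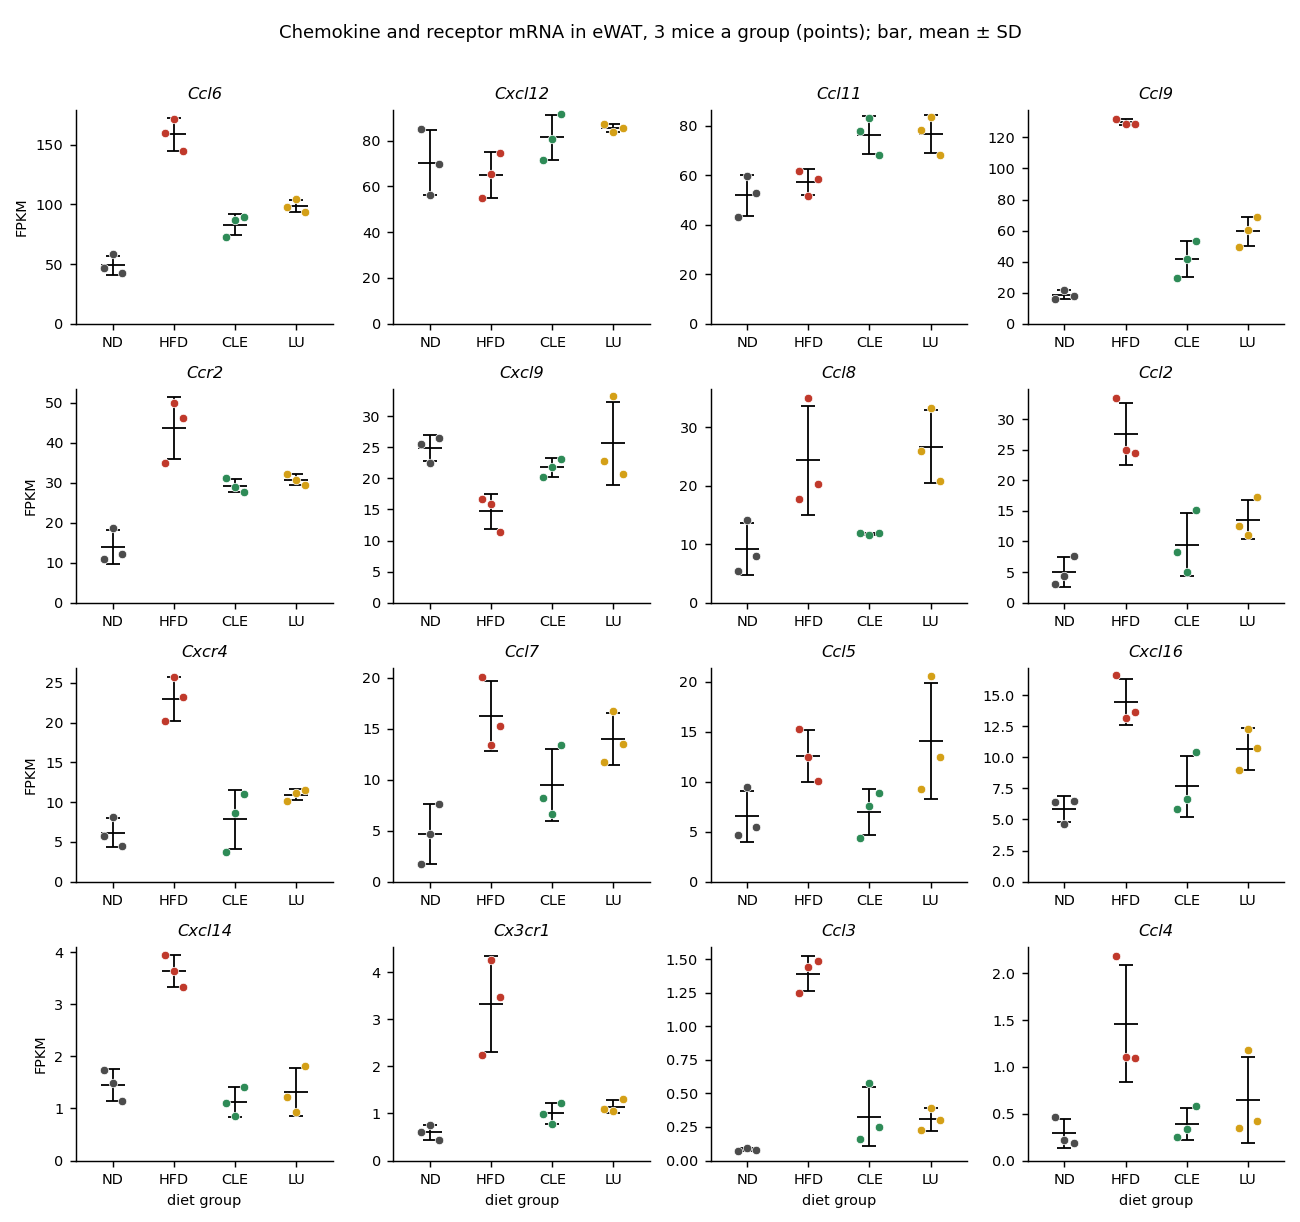
FPKM of 16 members in each mouse by diet group, each panel with its own axis from 0; points are mice and bars are the mean ± SD of 3 mice. In Ccl2, Ccl6, Ccl9, Ccr2, Cxcl14, Cxcl16, Cxcr4, Cx3cr1 and Ccl3 the HFD mice lie above all mice of the other groups. For Ccl3 this was built in, as it passed the filter only through the HFD mice. LU mouse 3 is the highest point for Ccl5 at 20.5 FPKM.

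Ccl11 (eotaxin) and Ccl24 attract eosinophils through Ccr3, and neither was called in any comparison. Ccl11 was nevertheless among the most abundant members, at 43.1, 59.7 and 52.6 FPKM in the ND mice, 61.6, 51.5 and 58.5 in the HFD mice, 77.7, 83.2 and 68.1 in the CLE mice and 78.2, 83.4 and 68.1 in the LU mice. ND and HFD mice overlapped, with a log2 difference of 0.15 ± 0.13 (adjusted p = 0.36). All CLE and LU mice exceeded all HFD mice, with 0.41 ± 0.13 (adjusted p = 0.030) and 0.41 ± 0.13 (adjusted p = 0.035), so that the adjusted p passed and the fold change of 1.5 did not. Ccl24 ranged from 1.49 to 5.62 FPKM with overlapping groups, and Ccl26 was listed at 0.

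Of the 12 CC ligands that act on lymphoid and barrier receptors, 5 were tested. Ccl22, a ligand of Ccr4, was 0.286 to 0.365 FPKM in ND and 1.17 to 2.15 in HFD, and rose by 0.98 ± 0.14 (adjusted p = 1.1e-04). Its differences with CLE, -0.57 ± 0.14 (adjusted p = 0.0071), and with LU, -0.39 ± 0.14 (adjusted p = 0.0502), did not meet both criteria. The one with CLE did without HFD mouse 18 or CLE mouse 11, at adjusted p of 0.0028 to 0.0031. Ccl27a, a ligand of Ccr10, went the other way. It was 9.58 to 14.1 FPKM in ND, 4.66 to 4.95 in HFD, 8.19 to 9.53 in CLE and 8.31 to 9.24 in LU, and it fell with HFD (-1.13 ± 0.12, adjusted p = 1.4e-05) and rose with CLE (0.74 ± 0.12, adjusted p = 6.3e-04) and LU (0.75 ± 0.12, adjusted p = 9.4e-04). Ccl25, a ligand of Ccr9, had 3.48 to 4.72 FPKM in ND, 1.72 to 2.36 in HFD, 3.49 to 3.78 in CLE and 2.50 to 3.58 in LU, with -0.77 ± 0.12 (adjusted p = 3.6e-04) for HFD, 0.62 ± 0.12 (adjusted p = 0.0028) for CLE and 0.36 ± 0.12 (adjusted p = 0.0484) for LU. The CLE call was lost without HFD mouse 18, at 0.54 (adjusted p = 0.016). With each gene represented by its most abundant transcript row, Ccl27a did not pass with CLE, 0.45 (adjusted p = 0.074), and Ccl25 passed neither with CLE, 0.43 (adjusted p = 0.22), nor with HFD, -0.44 (adjusted p = 0.16). The Ccl27a gene overlaps Il11ra1 on the opposite strand and has a near copy, Ccl27b, and Ccl25 overlaps Elavl1, so the reads given to them are uncertain. Ccl19 and Ccl21a, the ligands of Ccr7, were not called and ranged from 1.01 to 2.49 and from 1.39 to 9.32 FPKM. Ccl21a has near-identical copies, Ccl21b and Ccl21c, both listed at 0.

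Among CXC ligands of Cxcr2, Cxcl1 and Cxcl2 were tested. Cxcl2 was 1.24, 0.144 and 0.271 FPKM in ND mice and 2.94, 2.44 and 2.41 in HFD mice, and it rose by 1.28 ± 0.26 (adjusted p = 0.0018). In the fit without the letter R libraries, with 1 ND mouse, the difference was 0.68 (adjusted p = 0.13). CLE mice had 0.518, 0.683 and 1.91 FPKM and LU mice 1.24, 1.57 and 1.13, with differences from HFD of -0.88 ± 0.26 (adjusted p = 0.023) and -0.64 ± 0.26 (adjusted p = 0.091). All mice of both groups lay below all HFD mice, and CLE passed the test. That call was lost without HFD mouse 12, CLE mouse 2 or CLE mouse 4, at adjusted p of 0.074 to 0.088. It was also lost with a pseudocount of 0.1, without the letter R libraries, and without the assembled row, which held 45.5% of Cxcl2 FPKM, at -0.58 (adjusted p = 0.060). LU passed without ND mouse 2 or CLE mouse 11, at adjusted p of 0.038 to 0.041, and in the fit of HFD and LU alone, at -0.64 (adjusted p = 0.0034). Cxcl1 was 1.28 to 1.82 FPKM in ND, 2.06 to 2.49 in HFD, 1.93 to 3.92 in CLE and 2.81 to 3.90 in LU. It was not called against HFD in either supplement, and it was higher in LU than in ND by 0.76 ± 0.17 (adjusted p = 0.015).

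Of the interferon-induced ligands of Cxcr3, Cxcl9 fell with HFD. Cxcl9 was 25.6, 22.5 and 26.5 FPKM in the ND mice, 16.7, 15.9 and 11.4 in the HFD mice, 20.3, 21.8 and 23.2 in the CLE mice and 22.8, 33.3 and 20.7 in the LU mice. The HFD mice lay below all others, with -0.74 ± 0.17 (adjusted p = 0.0039) against ND, 0.55 ± 0.17 (adjusted p = 0.027) for CLE against HFD and 0.75 ± 0.17 (adjusted p = 0.0078) for LU against HFD. The calls were lost without HFD mouse 18 for HFD, -0.58 (adjusted p = 0.019), and without LU mouse 3 for LU, 0.55 (adjusted p = 0.026), as the fold change then fell short of 1.5. Without the letter R libraries, with 1 ND mouse, the difference between HFD and ND was -0.78 and was not called. With CLE, Cxcl9 was called without HFD mouse 12, HFD mouse 15 or CLE mouse 2, at adjusted p of 0.029 to 0.044. Cxcl10 was 3.31 to 5.18 FPKM in ND and 1.46 to 4.32 in HFD and was not called. Cxcl11, which GENCODE annotates as a polymorphic pseudogene, stayed below 1 FPKM, with 100% of its FPKM in assembled transcript variants. Cxcl10 and Cxcl11 overlap Art3, which lies on the opposite strand.

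Among CXC ligands of stroma and lymphoid tissue, Cxcl14 and Cxcl13 changed with HFD. Cxcl14, which is made by epithelial and stromal cells and for which no classical receptor is agreed, was 1.73, 1.49 and 1.14 FPKM in the ND mice, 3.94, 3.64 and 3.32 in the HFD mice, 1.11, 0.849 and 1.42 in the CLE mice and 1.21, 0.924 and 1.82 in the LU mice. It rose with HFD by 0.92 ± 0.15 (adjusted p = 3.4e-04), and with CLE and LU the differences were -1.13 ± 0.15 (adjusted p = 1.8e-04) and -1.02 ± 0.15 (adjusted p = 6.7e-04). HFD mice lay above all others and the other 3 groups overlapped. Cxcl13, which attracts B cells through Cxcr5, was 0.836, 4.93 and 1.56 FPKM in ND and 0.247, 0.715 and 0.352 in HFD, a difference of -1.09 ± 0.39 (adjusted p = 0.035) in which ND mouse 3 stood far above the other mice. The call was lost without ND mouse 3, HFD mouse 12 or HFD mouse 18, at adjusted p of 0.085 to 0.13, and also with the letter R as a covariate, -0.95 (adjusted p = 0.12), and with no filter on low values, -1.09 (adjusted p = 0.074). The 6 B cell markers in the table summed to 3.37 to 6.84 FPKM in ND and 1.60 to 2.52 in HFD, with the highest sum in ND mouse 3 as well, and the part of B cells in the Cxcl13 levels was not tested. Cxcl16, a membrane-anchored ligand of Cxcr6, rose with HFD by 1.18 ± 0.19 (adjusted p = 3.5e-04) and with CLE differed from HFD by -0.87 ± 0.19 (adjusted p = 0.0047). Cxcl16 was 6.38, 4.62 and 6.50 FPKM in the ND mice, 16.6, 13.1 and 13.7 in the HFD mice, 5.83, 6.67 and 10.5 in the CLE mice and 8.94, 12.3 and 10.7 in the LU mice, and the HFD mice exceeded all others. With the most abundant transcript row of each gene it did not pass with CLE, -0.74 (adjusted p = 0.067). Cx3cl1, the ligand of Cx3cr1, was not called in any comparison and ranged from 1.25 to 3.11 FPKM.

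Cxcl12 was, by its mean over all libraries, second only to Ccl6 and was not called in any comparison as a gene, yet its 2 main transcripts stood in opposite order in HFD mice and in the other mice. The gene was 84.9, 56.4 and 70.0 FPKM in the ND mice, 55.0, 65.4 and 74.8 in the HFD mice, 71.6, 80.9 and 91.6 in the CLE mice and 87.4, 83.9 and 85.4 in the LU mice, with -0.10 ± 0.15 (adjusted p = 0.59) for HFD against ND. A longer transcript, ENSMUST00000073043 (chr6:117168577-117181367), and a shorter one, ENSMUST00000112866 (chr6:117168535-117175069), which ends 6.30 kb earlier, held 54.2% and 36.5% of the gene's FPKM over all libraries. The longer transcript was 54.1, 29.4 and 46.0 FPKM in ND mice, 17.2, 17.5 and 25.96 in HFD mice, 44.5, 49.5 and 56.1 in CLE mice and 53.1, 49.8 and 48.2 in LU mice. The shorter was 24.2, 17.9 and 16.5 FPKM in ND mice, 32.6, 43.5 and 42.9 in HFD mice, 21.5, 23.4 and 25.4 in CLE mice and 26.3, 26.5 and 29.9 in LU mice. HFD mice were thus below all others for the longer transcript and above all others for the shorter one.

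The shorter transcript made up 27.95% ± 4.06 (SD, n = 3) of Cxcl12 FPKM in ND, 61.1% ± 4.82 in HFD, 28.9% ± 1.16 in CLE and 32.3% ± 2.47 in LU. With each gene represented by its most abundant transcript row, here the longer one, Cxcl12 with HFD had a difference of -1.04 (adjusted p = 0.0024) on the log2 scale and was higher with CLE, 1.29 (adjusted p = 0.0013), and with LU, 1.30 (adjusted p = 0.0022). In those fits 11.2% of genes were called lower with HFD, 6.18% higher with CLE and 5.02% higher with LU. The shorter transcript and the shares were not tested. The transcripts were singled out after their values were seen, and how Cufflinks divides reads between transcripts that overlap over most of their length is an estimate whose error was not given in the sources used here.

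**Figure D3:**
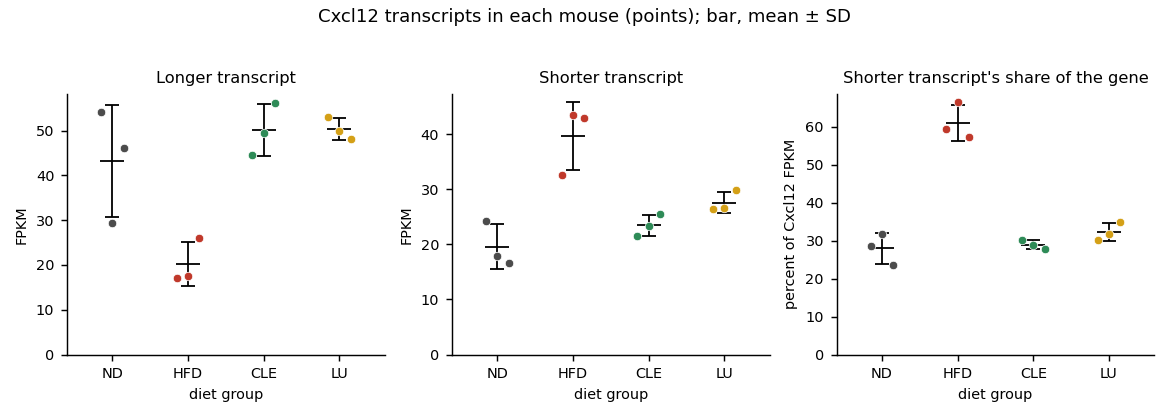
FPKM of the longer and the shorter Cxcl12 transcript and the share of the gene's FPKM in the shorter one, in percent, for each mouse by diet group; bars are the mean ± SD of 3 mice. In HFD mice the shorter transcript holds 57.3 to 66.5% of the gene, above every mouse of the other 3 groups.

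Of the 4 CC receptors tested, 2 rose with HFD. Ccr2, the receptor that monocytes use to leave the blood, was 10.8, 18.8 and 12.3 FPKM in the ND mice, 35.0, 49.9 and 46.1 in the HFD mice, 31.2, 28.9 and 27.8 in the CLE mice and 32.2, 30.7 and 29.3 in the LU mice. Ccr2 rose with HFD by 1.60 ± 0.17 (adjusted p = 2.1e-05), and CLE and LU mice lay below all HFD mice, with differences of -0.55 ± 0.17 (adjusted p = 0.031) and -0.48 ± 0.17 (adjusted p = 0.061), neither of which was called. Without HFD mouse 12 both were called, at -0.69 (adjusted p = 0.017) and -0.63 (adjusted p = 0.035).

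Ccr1, the receptor of Ccl6 and Ccl9 on myeloid cells, was 0.775 to 1.63 FPKM in ND, 4.25 to 4.93 in HFD, 2.48 to 2.75 in CLE and 3.07 to 3.84 in LU, and the 4 ranges did not overlap. Its differences were 1.34 ± 0.13 (adjusted p = 8.0e-06) for HFD against ND, -0.61 ± 0.13 (adjusted p = 0.0038) for CLE against HFD and -0.31 ± 0.13 (adjusted p = 0.094) for LU against HFD. The CLE value missed the fold change without HFD mouse 15 or CLE mouse 11, at -0.56 (adjusted p = 0.018) and -0.57 (adjusted p = 0.013). Ccr7, which guides dendritic and T cells to lymph nodes, and Ccr10 passed the adjusted p for HFD and not the fold change on FPKM + 1, at 0.47 ± 0.17 (adjusted p = 0.034) and -0.40 ± 0.14 (adjusted p = 0.030). Without the added 1, the HFD mean was 2.04 times the ND mean for Ccr7 and 0.564 times it for Ccr10. Ccr3, the eosinophil receptor, did not pass the filter, but it was 0.855, 0.811 and 0.651 FPKM in HFD mice and at most 0.240 in all others. Ccr3 was not tested. Of the eosinophil genes on the marker list, Epx was at most 0.0989 FPKM and Prg2 at most 0.588 in any library, and Siglecf was not found under that symbol. The part of eosinophils in the Ccr3 level was not tested.

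Cxcr4, the receptor of Cxcl12, was 5.80, 8.09 and 4.54 FPKM in the ND mice, 20.2, 25.7 and 23.2 in the HFD mice, 3.79, 8.68 and 11.05 in the CLE mice and 10.1, 11.2 and 11.5 in the LU mice. Cxcr4 rose with HFD by 1.77 ± 0.28 (adjusted p = 3.1e-04) and differed from HFD by -1.54 ± 0.28 (adjusted p = 0.0015) with CLE and -1.005 ± 0.28 (adjusted p = 0.021) with LU. The call with LU was lost without HFD mouse 15 or 18 or LU mouse 2 or 3, with adjusted p up to 0.068. Without the letter R libraries, a fit with 1 ND mouse, the LU difference was -0.95 and was not called. Cx3cr1, which marks resident macrophages and patrolling monocytes, was 0.601, 0.755 and 0.440 FPKM in the ND mice, 2.23, 4.26 and 3.47 in the HFD mice, 0.998, 0.781 and 1.23 in the CLE mice and 1.09, 1.05 and 1.30 in the LU mice. It rose with HFD by 1.41 ± 0.16 (adjusted p = 2.5e-05) and was lower with both supplements, with -1.09 ± 0.16 (adjusted p = 3.7e-04) for CLE and -0.98 ± 0.16 (adjusted p = 0.0011) for LU. HFD mice exceeded all other mice for both receptors. Cxcr3 and Cxcr6, which T cells carry, were not called. Cxcr3 passed the adjusted p for HFD and not the fold change on FPKM + 1, at 0.38 ± 0.13 (adjusted p = 0.030). Without the added 1, its HFD mean was 1.66 times the ND mean. Cxcr3 and Cxcr6 were both highest in LU mouse 3 among the LU mice, at 1.75 and 2.55 FPKM.

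The extract and luteolin were compared with each other, at 1.5% extract and 0.003% luteolin in the diet. No member was called, with 0% of all genes higher and 0.00817% lower in CLE, and 5 members had an unadjusted p below 0.05 against 639 of all 12244 genes. The widest differences were in Ccl8, -1.09 (95% interval -1.74 to -0.44), Ccl5, -0.90 (95% interval -1.58 to -0.23), Ccl2, -0.57 (95% interval -1.32 to 0.17), Ccl7, -0.56 (95% interval -1.34 to 0.21), and Ccl9, -0.54 (95% interval -0.94 to -0.13), all lower in CLE. The adjusted p of Ccl8 and of Ccl5 was 0.90. For Ccl5, Ccl6, Ccl8, Ccr1 and Cxcr3 every CLE mouse was below every LU mouse, that is for 5 of the 33 members (15.2%), against 6.29% of all genes tested, and for no member was every CLE mouse above every LU mouse, against 2.61%. The interval was narrower for Ccl3, 0.01 (95% interval -0.23 to 0.25), and for Ccl27a, -0.01 (95% interval -0.27 to 0.24). A p above the threshold does not show that the supplements act alike, and the intervals of Ccl8 and Ccl5 extend below -1.5 on the log2 scale.

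**Figure D4:**
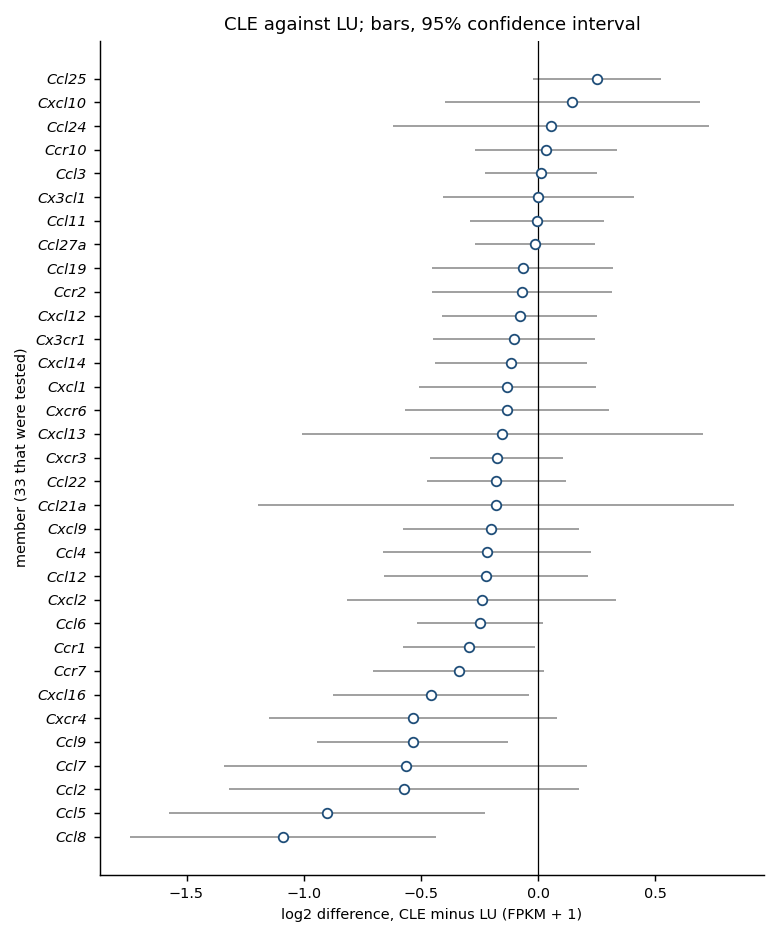
Log2 difference between CLE and LU (CLE minus LU, FPKM + 1) of the 33 tested members; points are limma estimates and lines are 95% confidence intervals. Ccl8 and Ccl5 lie farthest to the left, at -1.09 and -0.90, and no member was called.

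Several members stayed above the ND level in the supplemented mice. In CLE, 4 members (12.1% of those tested) were called higher than in ND and none lower, against 2.13% and 0.841% of all genes. The 4 were Ccl6 (0.75 ± 0.12, adjusted p = 0.014), Ccl9 (1.09 ± 0.19, adjusted p = 0.014), Ccr1 and Ccr2 (1.05 ± 0.17, adjusted p = 0.014). In the fit of ND and CLE alone none of these was called, and neither was any other of the 11786 genes tested there, of which 2128 had an unadjusted p below 0.05. In LU, 10 (30.3% of those tested) were higher than in ND and none lower, against 5.02% and 1.54% of all genes. They were the same 4 and Ccl2 (1.33 ± 0.34, adjusted p = 0.026), Ccl7, Ccl8 (1.50 ± 0.30, adjusted p = 0.0084), Ccl22, Cxcl1 and Cxcl16.

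Most CC ligands of the myeloid receptors lie in 2 groups of genes on chromosome 11, and several receptors in 1 group on chromosome 9 (GENCODE M21, GRCm38). In the first group, of 270.1 kb, the order is Ccl2, Ccl7, Ccl11, Ccl12, Ccl8 and Ccl1, with Ccl2 at chr11:82035571-82037453. Their log2 differences for HFD against ND were 2.31, 1.73, 0.15, 0.29 and 1.34, so that Ccl11 and Ccl12, which were not called, lie between genes that rose. Ccl1 was not tested. In the other group, of 139 kb, Ccl5 (chr11:83525778-83530518), Ccl9 (chr11:83572919-83578636), Ccl6 (chr11:83587882-83593087), Ccl3 (chr11:83647844-83649355) and Ccl4 (chr11:83662584-83664683) all rose. Ccl3 passed the filter only through the HFD mice, which built its direction in. Ccl4 reached 1 FPKM in all HFD mice and in no ND mouse, which built its direction in too. The Ccl5 call was lost in the alternatives given above. On chromosome 9 the receptors run Ccr9, Cxcr6, Ccr1, Ccr3 and Ccr2 (chr9:124101950-124113557), and Ccr1 and Ccr2 rose while Cxcr6 did not pass the test. No strand marking is described for the libraries, so reads cannot be assigned between members and overlapping genes on the other strand, which for tested members are Gm17268 (Ccl2), E230016K23Rik (Ccl6), Zmynd15 (Cxcl16), Cntnap1 (Ccr10), Fyco1 (Cxcr6) and 4930578G10Rik (Ccl19 and Ccl21a), besides those named above, and Cx3cr1 spans several other genes.

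Promoters of 4 of these neighbours and of Cxcl9 are shown because the genes differ in response. Ccl9, Ccl6 and Ccl8 rose with HFD, Ccl12 did not pass and Cxcl9 fell. The sequences are the 250 bases before the start, 5′ to 3′ on the gene's strand, from RefSeq (GRCm38.p6), in which 39 members had an entry. Capitals mark matches on either strand to the letters TATAAA of a TATA box, to TGANTCA (an AP-1 site), to GAAANNGAA (an interferon-responsive element) or the NF-kB consensus, and matches may overlap.
Ccl9 (chr11:83578637-83578886, minus strand): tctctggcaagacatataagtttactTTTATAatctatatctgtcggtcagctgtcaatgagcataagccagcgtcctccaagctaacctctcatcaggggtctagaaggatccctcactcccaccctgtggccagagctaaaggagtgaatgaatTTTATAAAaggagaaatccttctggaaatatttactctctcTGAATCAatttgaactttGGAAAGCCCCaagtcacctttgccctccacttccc
Ccl6 (chr11:83593088-83593337, minus strand): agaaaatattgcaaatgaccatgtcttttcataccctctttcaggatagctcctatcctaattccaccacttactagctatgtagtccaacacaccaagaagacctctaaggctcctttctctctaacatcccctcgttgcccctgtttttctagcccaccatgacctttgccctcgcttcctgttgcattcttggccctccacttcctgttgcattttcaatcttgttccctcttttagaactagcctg
Ccl8 (chr11:82114935-82115184, plus strand): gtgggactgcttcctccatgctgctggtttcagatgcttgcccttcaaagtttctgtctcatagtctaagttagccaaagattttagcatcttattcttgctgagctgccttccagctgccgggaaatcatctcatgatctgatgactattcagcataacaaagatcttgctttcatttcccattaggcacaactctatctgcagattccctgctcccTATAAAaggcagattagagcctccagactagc
Ccl12 (chr11:82101595-82101844, plus strand): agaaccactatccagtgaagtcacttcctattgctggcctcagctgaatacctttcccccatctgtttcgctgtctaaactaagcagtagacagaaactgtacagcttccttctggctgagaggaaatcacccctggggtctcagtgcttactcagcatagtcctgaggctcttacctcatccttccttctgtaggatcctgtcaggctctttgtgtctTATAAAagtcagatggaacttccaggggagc
Cxcl9 (chr5:92328080-92328329, minus strand): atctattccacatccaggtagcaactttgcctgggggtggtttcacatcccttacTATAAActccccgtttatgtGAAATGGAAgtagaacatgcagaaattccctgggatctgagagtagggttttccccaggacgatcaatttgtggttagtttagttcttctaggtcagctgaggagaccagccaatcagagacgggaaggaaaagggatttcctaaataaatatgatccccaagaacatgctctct
TATAAA was found in 12.4% of all 32851 promoters in the table, TGANTCA in 6.75%, GAAANNGAA in 7.13% and the NF-kB consensus in 7.25%. Over the 46 promoters of members the matches were 11, 6, 8 and 10 promoters, and GAGGAAGT (a PU.1 site) was found in 1, that of Cxcr3, against 2.44% of all. Ccl8 and Ccl12, of which the first rose and the other did not pass, both held TATAAA, at positions -32 and -31 from the start. Ccl9 held TATAAA farther from the start, at -224, -94 and -92, with the AP-1 letters and the NF-kB consensus. Cxcl9 held TATAAA at -195 and the interferon-responsive letters, and Ccl6 held none of the letters searched.

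Members that did not pass the filter numbered 21. Of these, Ccl20, Ccl21b, Ccl21c, Ccl26, Ccl27b and Cxcl15 were listed at 0 in all libraries. Cxcl11 ranged from 0.159 to 0.706 FPKM and Ccl28 from 0.207 to 1.58. Ccl17, Ccr3 and Cxcr5 were at most 0.601, 0.855 and 0.540 FPKM. Ccl1, Ccr4, Ccr6, Ccr8, Ccr9, Cxcl3, Cxcl5, Cxcl17, Cxcr1 and Cxcr2 did not exceed 0.339 FPKM. Cxcr1 and Cxcr2, the receptors of neutrophils for Cxcl1 and Cxcl2, were at most 0.108 and 0.0764 FPKM.

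Signalling genes that act downstream of chemokine receptors in leukocytes rose in 16 of 24 tested with HFD and none fell, against 15.1% and 10.6% of all genes, with a median log2 difference of 1.18. With CLE 15 fell and with LU 13 fell, against 10.4% and 7.75% of all genes, none rose in either, and the medians were -0.96 and -0.64. Dock2, which activates Rac in migrating leukocytes, was 2.87 to 4.48 FPKM in ND and 37.5 to 43.9 in HFD (3.21 ± 0.19, adjusted p = 6.6e-07), and it was 6.16 to 10.9 in CLE and 9.06 to 13.8 in LU. Pik3cg, the PI3-kinase subunit driven by Gβγ, rose by 1.74 ± 0.09 (adjusted p = 4.7e-07). Rgs1, which limits chemokine receptor signals, was 0.254 to 0.371 FPKM in ND and 57.9 to 63.3 in HFD, a difference of 5.55 ± 0.57 (adjusted p = 1.4e-05). The G protein subunits Gnb1 and Gnb2 and the kinase gene Grk6 were not called, with log2 differences of 0.13, 0.08 and 0.06. Not all genes of these kinds stayed flat. The G protein subunit Gnai2 was 127 to 148 FPKM in ND and 185 to 200 in HFD, and the arrestin gene Arrb2 was 19.2 to 20.4 and 40.4 to 45.1.

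Atypical receptors and related ligands divided. Of 11 tested, 2 rose and 3 fell with HFD, where 15.1% and 10.6% of all genes did. Ackr4, a receptor that removes Ccl19, Ccl21 and Ccl25 from tissue, fell with HFD (-1.29 ± 0.18, adjusted p = 1.5e-04) and rose with CLE by 1.09 ± 0.18 (adjusted p = 9.7e-04) and LU by 0.87 ± 0.18 (adjusted p = 0.0052), at 7.32 to 9.32 FPKM in ND and 2.38 to 3.27 in HFD. Cmklr1, the chemerin receptor, fell as well, -0.59 ± 0.20 (adjusted p = 0.027), and rose with CLE, 1.06 ± 0.20 (adjusted p = 0.0018), and LU, 0.69 ± 0.20 (adjusted p = 0.024). The platelet chemokine genes Pf4 and Ppbp moved apart with HFD, at 0.74 ± 0.13 (adjusted p = 8.2e-04) and -1.55 ± 0.23 (adjusted p = 1.9e-04). Xcl1, the ligand of Xcr1 and the only gene of the table called between CLE and LU, was 0.162, 0 and 0 FPKM in CLE mice and 1.06, 0.920 and 1.22 in LU mice (-0.97 ± 0.12, adjusted p = 0.035). The call was made in 4 of 25 alternatives, and in 20 of them no gene was called. Xcl1 lies outside the member rule, and its level is near the filter.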

How the data were processed

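Per the labels and the study's methods, mRNA of eWAT from 3 mice a group was sequenced as 100-base read pairs, and the submitters' processing notes name CASAVA 1.8.2, Bowtie2 2.2.3, TopHat2 2.0.12 and Cufflinks 2.2.1. The deposited table holds the FPKM that the authors computed for 152210 transcript rows. Read counts and depth are not given with it, so no counting error can be stated. It also holds the authors' yes or no calls for their own comparisons, which were not used, and 3 FPKM columns that match no sample here and were not used. The column of ND mouse 4 is headed MD4 and was matched by its number and letter. The build is not given in the sources used here, but 94 of the 121 plain member transcripts found in GENCODE M21 (GRCm38) have the same start and end there.

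Rows with a plain Ensembl transcript, or an assembled one equal to it (class code =) or sharing a junction with it (class code j), were summed by gene name, which gave 22033 genes. The test was limma 3.58.1 (R 4.3.3), run on log2 of FPKM with 1 added and kept to genes that reached 1 FPKM in 3 or more libraries, with all 4 diets in 1 fit, no covariate and Benjamini-Hochberg adjustment over 12244 genes. Calls required an adjusted p below 0.05 and a fold change above 1.5, the thresholds of the study, with the fold change taken here on the FPKM + 1 scale. The test was first tried on simulated data. Values in every mouse are given for the 12 members with the highest mean, the 6 with the largest change among those called in each comparison with or against HFD, and Ccl2, Ccl4 and Ccr2; other members are given by range and direction. Cxcl2, Cxcl13, Ccr3 (HFD mice), Xcl1 and the Cxcl12 transcripts are also given by mouse and were chosen after their values were seen. 1 gene that the rule on symbols finds is not reported here, and member counts and sums leave it out. The members, lists and alternatives were chosen with earlier results of these data known. With 3 mice a group an exact permutation test cannot go below p = 0.1, so none was run. The alternatives were other pseudocounts, filters, normalizations and row sums, the letter R (carried in the labels of 4 libraries, none of them HFD) as a covariate or a reason to leave libraries out, each mouse left out, and the mouse number as a block.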

Additional observations from a re-analysis of the deposited data

How the results depend on the processing

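The 66 differences from 3 comparisons (HFD against ND, and each supplement against HFD) of the 22 members that were called there or are given in every mouse were recomputed under 24 alternatives. This gave 1554 values, of which 1465 kept both direction and call, 44 lost a call, 39 gained one and 6 changed sign. A member that failed the filter of an alternative gave no value there, so a call lost in that way is not among the 44. Under the filter on the mean of all libraries Ccl3, Ccl4 and Ccl22 dropped out, with means of 0.527, 0.699 and 0.948 FPKM. Ccl3 also dropped out without any 1 of the HFD mice, and Cxcl13 without the letter R libraries and in the fits of 2 groups. The sign changes all came from leaving out 1 mouse, in differences that were not called: over the mice left out, Cxcl12 for HFD against ND ranged from -0.25 to 0.039, Ccl8 for LU against HFD from -0.023 to 0.45 and Ccl5 for LU against HFD from -0.20 to 0.34. Of the counts of members called, the 4 lower with HFD became 2 without the letter R libraries, a fit with 1 ND mouse whose spread is taken from the other groups, and 2 to 4 with 1 mouse left out. The 2 higher with CLE than with HFD became 4 on adjusted p alone, 1 without the class code j rows, 1 with the highest row of each gene and 1 to 3 with 1 mouse left out, and the 2 higher with LU became 4 on adjusted p alone and 1 to 3 with 1 mouse left out. The 12 lower with CLE and the 6 lower with LU were not fixed either. Without CLE mouse 2 or 4, Ccl8 and Cxcl2 left the 12. In the fit of HFD and LU alone Ccl2 and Cxcl2 joined the 6, and without HFD mouse 15 Cxcr4 left them. The 4 higher in CLE than in ND became 0 in the fit of only those groups, as did the 261 of all genes. The cause of these changes was not tested, and the absent read depth leaves counting error at low FPKM unknown.

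With the mouse number as a replicate block in the ND, CLE and LU libraries, the members higher in CLE than in ND were 0 and those higher in LU than in ND were 6 in place of 10, while of all genes 2 were higher in CLE in place of 261 and 362 in LU in place of 615. Same-numbered mice correlated between -0.11 and 0.19 in their deviations. Mice of different numbers were not correlated for comparison, so these values cannot tell whether the number pairs mice. HFD mice share no number with the others, so no such fit exists for the comparisons with HFD.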

Other observations

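Individual mice stood out across the members. CLE mouse 11 had the highest value of its group in 22 of the 33 tested members (66.7%), against 40.9% of all genes tested, and its macrophage and monocyte markers summed to 869.8 FPKM, against 614 and 729 in the other CLE mice. LU mouse 3 was highest of its group in 18 members (54.5%), against 29.7% of all genes. HFD mouse 18 was highest in 4 members (12.1%), against 36.4% of all genes. The part of single mice in the group differences was examined only by leaving each out.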
